A study of Mus musculus with 8 samples.

Results

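The 6 genes Fcgr1, Fcgr2b, Fcgr3, Fcgr4, Fcer1g and Fcgrt, which encode receptors for the Fc part of antibodies or their signalling chain, were followed by name through a count table of 24421 gene symbols. All 6 were in the table and all 6 passed the filter on low counts. RNA was sequenced from mouse bone marrow cells of the strain C57BL/6 that carry MLL-AF10, a fusion oncogene of leukaemia that joins parts of MLL and AF10. MAflox cells are MLL-AF10 flox cells. MATIP cells carry MLL-AF10, Tip60 flox/flox and Cre-ERT2, a recombinase that 4-hydroxytamoxifen (4-OHT) activates; Tip60 is the histone acetyltransferase encoded by Kat5. The labels do not say what is floxed in MAflox cells, whether they carry Cre-ERT2, or how many clones either line came from. All cultures were in methylcellulose and received SCF, IL-3 and GM-CSF. Exposure to 100 nM 4-OHT, or to ethanol (EtOH) in the control groups, lasted 4 days. This gives 4 groups, each of 2 libraries.

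Fc receptors let myeloid cells bind and take up particles coated with immunoglobulin G. Fcgr1 (FcγRI, of high affinity), Fcgr3 (FcγRIII) and Fcgr4 (FcγRIV) are activating receptors, which signal through the ITAM of a shared chain, FcRγ, encoded by Fcer1g. Fcgr2b (FcγRIIB) carries its own ITIM and inhibits. Fcgrt encodes the heavy chain of FcRn, an MHC class I-like receptor that recycles immunoglobulin G from endosomes. On macrophages and neutrophils the balance of activating over inhibitory receptors sets the threshold for an antibody response.

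Library totals were 41101309 to 57312490 counts. Levels are CPM, TMM-scaled counts relative to library size. A value after ± beside a log2 change is its standard error (SE), from 1 edgeR fit over 13722 genes and all 8 libraries. The words rose, fell and differed are kept for edgeR quasi-likelihood p-values under 0.05 after Benjamini-Hochberg adjustment across those genes. Whether the paired libraries of a group are separate cultures is not stated, and the p-values reflect only their spread, which may be technical. Kat5 fell in MATIP cells with 4-OHT (log2 −2.32 ± 0.09) and rose in MAflox cells (0.50 ± 0.07). With 4-OHT 65.2% of all genes tested were called in MAflox cells and 76.1% in MATIP cells, so a call by itself says little about the Fc receptors.

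Of the 6 genes, 4 lie within 275.7 kb of chromosome 1 in the GENCODE M21 annotation of mm10, in the order Fcgr2b (chr1:170958617-170976547, minus strand), Fcgr4 (chr1:171018920-171029761, plus strand), Fcgr3 (chr1:171051174-171064935, minus strand) and Fcer1g (chr1:171229572-171234365, minus strand). Fcgr1 is on chromosome 3 (chr3:96282909-96293969) and Fcgrt on chromosome 7 (chr7:45092990-45103851), both on the minus strand. All 6 are annotated as protein-coding.

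Fcgr2b and Fcgr3 are near copies in their immunoglobulin domains, which bears on how reads are shared between a receptor that inhibits and one that activates. The longest run that the coding sequences share letter for letter has 129 bases, at coding bases 278 to 406 of Fcgr2b and 263 to 391 of Fcgr3, and it crosses an intron in both (Fcgr2b between chr1:170966674-170968081, Fcgr3 between chr1:171054167-171057792, minus strand, GRCm38). It is shown because the letters of a read from inside it match both genes.
Shared run of Fcgr2b and Fcgr3: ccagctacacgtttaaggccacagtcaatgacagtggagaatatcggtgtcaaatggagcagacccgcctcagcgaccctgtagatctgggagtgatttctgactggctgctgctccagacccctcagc
Of all stretches of 50 bases in the longest Fcgr3 transcript, 12.8% also occur in Fcgr2b transcripts, and 4.75% of those of Fcgr2b occur in Fcgr3. With stretches of 100 bases the shares were 3.53% and 1.28%. Counting all genes, 12.5% of the Fcgr2b stretches of 50 bases occur elsewhere, most often in Cplx2. Fcgr1, Fcgr4, Fcer1g and Fcgrt had none in any other gene's transcripts at either length. How the counting treated such reads is not given in the sources used here, so single values of Fcgr2b and Fcgr3 are uncertain to that extent. Fcgr2b also shares 155 of its 5790 exon bases with the antisense gene Gm38204, and the strand setting of the counting is not given.

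Short stretches before the start sites of Fcgr1, Fcgr3 and Fcgr4, the activating receptors, are shown. They were picked because the 250 bases before the start hold the letters marked in capitals, so sharing these letters is no finding. The capitals mark GAGGAA or its reverse complement TTCCTC, the core that the myeloid transcription factor PU.1 binds.
Fcgr1, chr3:96293970-96294069, minus strand: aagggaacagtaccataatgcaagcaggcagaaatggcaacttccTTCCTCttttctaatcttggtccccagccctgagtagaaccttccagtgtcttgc
Fcgr3, chr1:171059404-171059503, minus strand: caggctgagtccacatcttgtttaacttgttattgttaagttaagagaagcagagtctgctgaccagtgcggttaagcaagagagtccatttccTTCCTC
Fcgr4, chr1:171018820-171018919, plus strand: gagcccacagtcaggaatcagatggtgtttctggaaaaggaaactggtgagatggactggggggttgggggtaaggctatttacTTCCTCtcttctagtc
These sequences are RefSeq's, of build GRCm38.p6, with parts that GENCODE lists as exons left out. For Fcgr3 there are 2 RefSeq windows, and only the first was searched and shown. Its stretch lies inside the GENCODE span of the gene (chr1:171051174-171064935) and not upstream of that span. In the 250 bases before the RefSeq start, searched on both strands, the letters were found in Fcgr1, Fcgr3 and Fcgr4 and not in Fcgr2b, Fcer1g or Fcgrt, against 23.3% of 32851 windows of all genes. The C/EBP pattern TTNCNNAA was found in Fcgr3, Fcgr4 and Fcgrt (36.8% of all windows), the gamma-activated pattern TTCNNNGAA in Fcgr1 (7.02%), the interferon-stimulated response element in Fcgr4 (2.98%) and the E-box CACGTG in none of the 6 (6.02%). In Fcgr4 the C/EBP and interferon matches overlap each other. A match is a description of letters and not a binding site.

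Across the 6 genes, 5 rose with 4-OHT in each line. In MAflox cells these were Fcgr2b, Fcgr3, Fcgr4, Fcer1g and Fcgrt, while Fcgr1 did not pass. In MATIP cells the 5 were Fcgr1, Fcgr3, Fcgr4, Fcer1g and Fcgrt, and Fcgr2b fell. Of all genes 33.1% rose and 32.1% fell in MAflox cells, and 37.5% rose and 38.6% fell in MATIP cells. The median log2 change of the 6 genes was 1.70 in MAflox and 1.78 in MATIP cells, beside 0.02 and 0.00 over all genes tested. The response was larger in MATIP than in MAflox cells for Fcgr1 and Fcer1g and smaller, or opposite, for Fcgr3 and Fcgr2b, where 28.3% of all genes had a larger and 33.6% a smaller value. In EtOH 4 of the 6 were higher in MATIP than in MAflox cells (20.3% of all genes) and none lower (11.7%). With 4-OHT 3 were higher (38.1%) and 1, Fcgr2b, lower (37.5%).

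**Figure D1:**
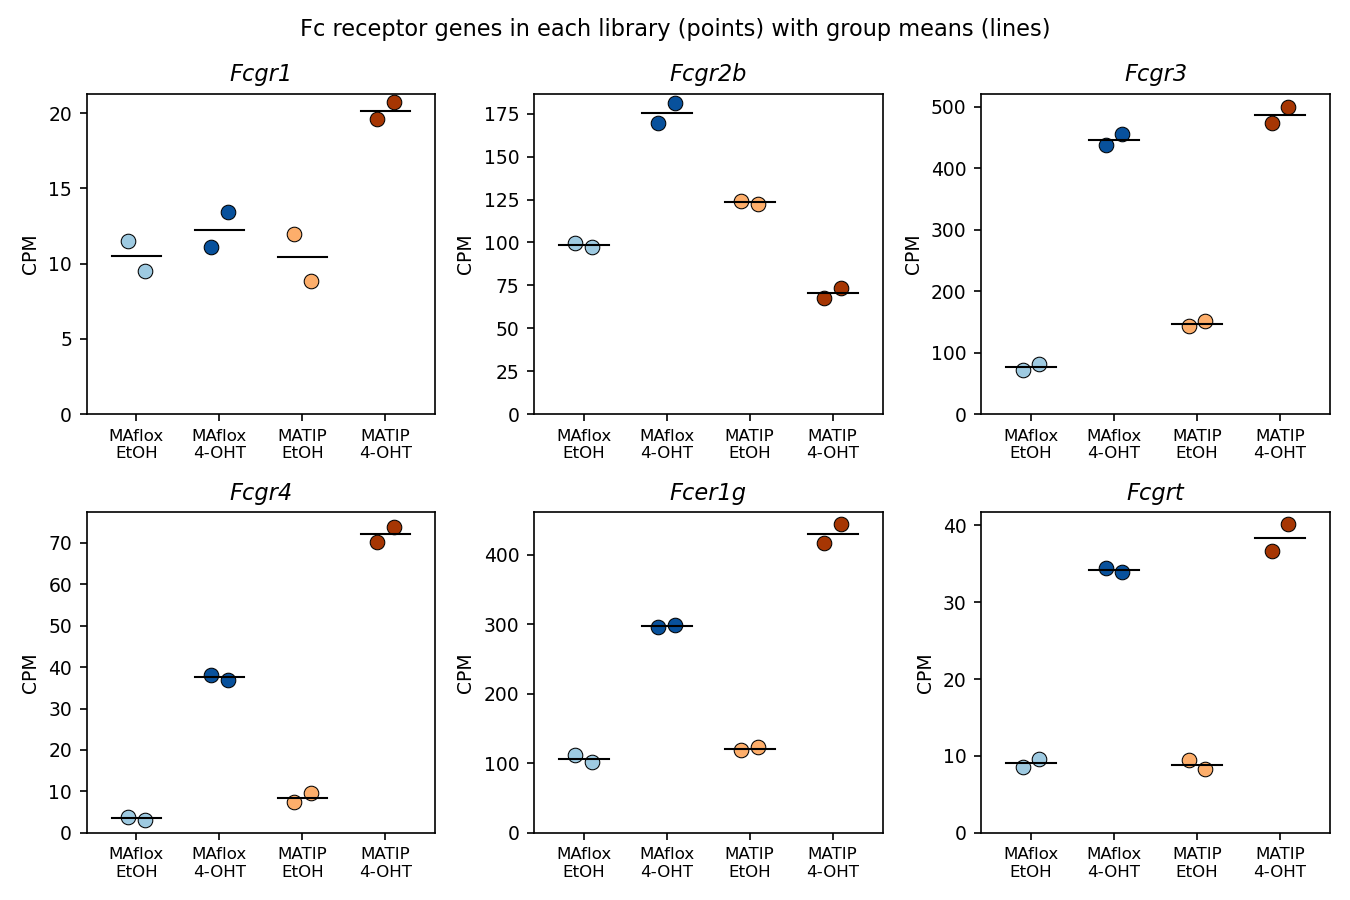
Each panel plots 1 Fc receptor gene, with CPM on a linear axis from 0 for the 2 libraries (points) of each group and the group mean (line). Fcgr2b is the one gene of the 6 whose MATIP 4-OHT libraries, at 67.6 and 73.8 CPM, lie below those of every other group.

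Fcgr2b, the inhibitory receptor, responded in opposite directions. Its level in MAflox cells was 99.5 and 97.6 CPM with EtOH and 169 and 181 CPM with 4-OHT. In MATIP cells it was 124 and 122 CPM with EtOH and 67.6 and 73.8 CPM with 4-OHT. No group overlapped another, and the order from low to high was MATIP 4-OHT, MAflox EtOH, MATIP EtOH, MAflox 4-OHT. The log2 change was 0.83 ± 0.06 in MAflox (edgeR adjusted p = 4.63e-10) and −0.80 ± 0.06 in MATIP cells (edgeR adjusted p = 5.2e-10). The difference between these responses was −1.63 ± 0.09 on the log2 scale (edgeR adjusted p = 1.09e-11), lower than that of 94.9% of genes tested. The share of all genes with a called difference was 61.9%. In the authors' deposited table the log2 changes of Fcgr2b were 0.83 in MAflox and −0.76 in MATIP cells.

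Fcgr3, the activating partner of the same gene cluster, rose in both lines. It stood at 72.7 and 82.0 CPM in MAflox EtOH and at 438 and 455 CPM in MAflox 4-OHT. In MATIP cells it went from 144 and 151 CPM to 473 and 500 CPM. The rise was larger in MAflox cells (log2 2.53 ± 0.07) than in MATIP cells (1.72 ± 0.06), with a difference of −0.81 ± 0.09 (edgeR adjusted p = 1.81e-07). The MATIP line already had more Fcgr3 in EtOH, by 0.93 ± 0.06, where 32.0% of all genes differed between the lines. With 4-OHT the levels of the lines lay close together, with a log2 difference of 0.12 (95% interval −0.00 to 0.25; edgeR adjusted p = 0.0721). That comparison passed with DESeq2 (adjusted p = 0.00699) and under 5 other settings, with log2 values of 0.12 to 0.53.

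Fcgr4, a receptor of mouse monocytes, macrophages and neutrophils that binds immunoglobulin G2 subclasses, had the largest fold changes of the 6 in both lines. It rose from 3.82 and 3.15 CPM to 38.1 and 37.0 CPM in MAflox cells, and from 7.35 and 9.49 CPM to 70.1 and 73.9 CPM in MATIP cells. The groups did not overlap, and the MATIP libraries were the higher ones in each treatment. The log2 change was 3.44 ± 0.12 in MAflox cells, above that of 96.3% of genes, and 3.09 ± 0.11 in MATIP cells, above that of 90.7%. The difference between the responses, −0.35 ± 0.16, did not pass (edgeR adjusted p = 0.0702, 0.00521 to 0.770 over the alternatives). It passed without MAflox EtOH replicate 1 (−0.49) or without MATIP EtOH replicate 1 (−0.52). MATIP cells had more Fcgr4 than MAflox cells by 1.29 ± 0.13 with EtOH and by 0.94 ± 0.10 with 4-OHT, where 75.5% of all genes differed.

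Fcgr1, the high-affinity receptor, was the one member with a call in a single line. Its libraries held 11.5 and 9.50 CPM in MAflox EtOH, 11.1 and 13.4 in MAflox 4-OHT, 11.98 and 8.86 in MATIP EtOH and 19.6 and 20.7 in MATIP 4-OHT. The first 3 groups overlapped one another and MATIP 4-OHT stood above them. The log2 change was 0.96 ± 0.14 in MATIP cells (edgeR adjusted p = 4.87e-06). In MAflox cells it was 0.22, with a 95% interval of −0.08 to 0.53. The difference between the responses passed at 0.73 ± 0.20 (edgeR adjusted p = 0.00387).

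Fcer1g, the signalling chain of the activating receptors, rose in both lines. It went from 112 and 102 CPM to 296 and 298 CPM in MAflox cells and from 119 and 124 CPM to 416 and 445 CPM in MATIP cells. The groups did not overlap, and MATIP 4-OHT was the highest. The log2 changes were 1.48 ± 0.06 and 1.83 ± 0.06, and the difference of 0.35 ± 0.08 passed (edgeR adjusted p = 0.0013). After a correction for the dependence of log2 changes on gene length and GC content, this difference was 0.85, that of Fcgr3 was −0.45 and that of Fcgr4 was 0.06, not called. In EtOH the lines differed by 0.18 ± 0.06 (edgeR adjusted p = 0.0255), a call lost under 10 of the alternatives, such as RLE scaling (adjusted p = 0.0513).

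Fcgrt, the recycling receptor, rose in both lines. Its level went from 8.49 and 9.55 CPM to 34.5 and 34.0 CPM in MAflox cells and from 9.46 and 8.27 CPM to 36.6 and 40.1 CPM in MATIP cells. The EtOH groups overlapped each other, and both 4-OHT groups lay above them. The log2 changes were 1.92 ± 0.10 and 2.12 ± 0.10, and their difference was 0.20 (95% interval −0.10 to 0.49; edgeR adjusted p = 0.234). It passed with upper-quartile scaling (0.33, adjusted p = 0.0490) and with the trend on length and GC content removed (0.33, adjusted p = 0.0492).

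**Figure D2:**
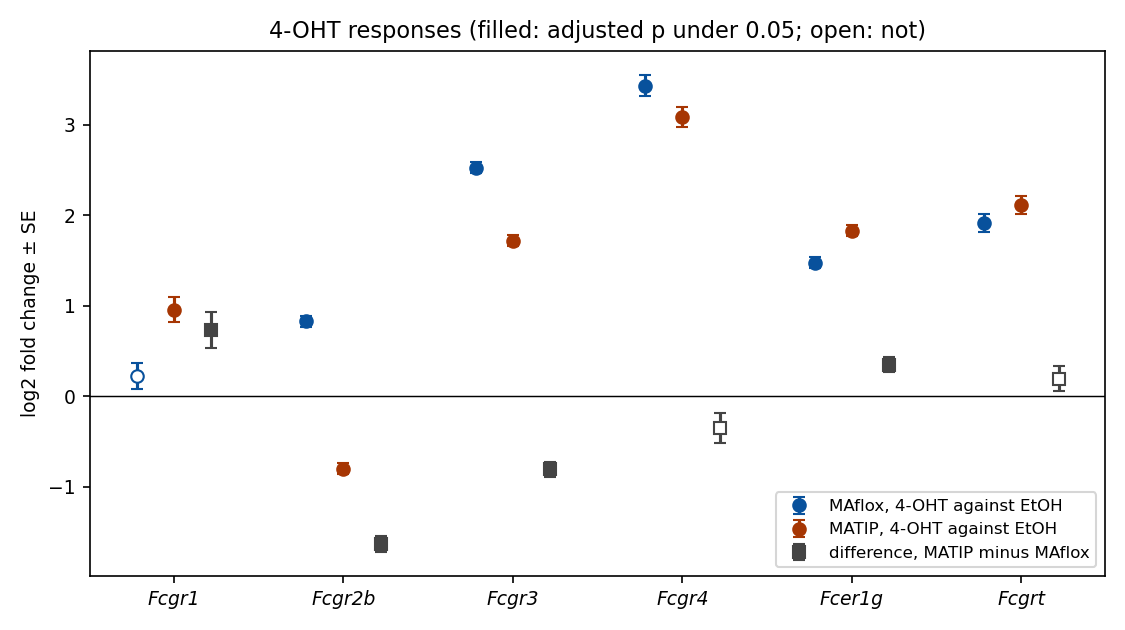
Log2 fold change ± SE with 4-OHT for the 6 genes in MAflox (blue) and MATIP cells (brown), with the difference of the responses in grey squares; filled symbols have an edgeR adjusted p under 0.05. Fcgr2b has a positive value in MAflox (0.83) and a negative one in MATIP cells (−0.80), while the values of Fcgr3, Fcgr4, Fcer1g and Fcgrt are above 0 in both.

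Levels of different genes were compared per length, as CPM per kilobase of annotated exon (RPKM). In MAflox EtOH the order was Fcer1g (122 ± 8.22 RPKM, SD, n = 2), Fcgr3 (44.5 ± 3.80), Fcgr2b (17.0 ± 0.229), Fcgrt (4.29 ± 0.356), Fcgr1 (4.06 ± 0.551) and Fcgr4 (2.77 ± 0.373). Fcgrt and Fcgr1 lay within their spread of each other. In MATIP 4-OHT the order was Fcer1g (493 ± 22.7 RPKM, SD, n = 2), Fcgr3 (280.4 ± 10.97), Fcgr4 (57.3 ± 2.12), Fcgrt (18.3 ± 1.19), Fcgr2b (12.2 ± 0.745) and Fcgr1 (7.78 ± 0.309). In MATIP EtOH the order was Fcer1g (139 ± 3.92 RPKM), Fcgr3 (84.9 ± 2.88), Fcgr2b (21.3 ± 0.284), Fcgr4 (6.71 ± 1.21), Fcgrt (4.22 ± 0.400) and Fcgr1 (4.02 ± 0.853), the last pair within their spread. Within MATIP cells Fcgr4 thus went from the fourth place to the third, and Fcgr2b from the third to the fifth. In MAflox 4-OHT Fcgr2b (30.3 ± 1.43 RPKM) and Fcgr4 (29.9 ± 0.619) lay within their spread of each other. The lengths of the transcripts these cells use were not measured, so distances between genes depend on the annotation.

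The makeup of the 4 Fcγ receptor transcripts moved away from the inhibitory one in both lines. Of their summed RPKM, Fcgr2b made up 25.8% and 24.0% in the MAflox EtOH libraries and 9.25% and 9.53% in the MAflox 4-OHT libraries. In MATIP cells its share went from 18.7% and 17.7% to 3.36% and 3.46%. Fcgr3 was the main transcript in every library, at 62.9% to 79.9%. Fcgr4 took 3.57% to 6.35% in the EtOH libraries, 9.59% and 8.97% in MAflox 4-OHT and 16.06% and 16.00% in MATIP 4-OHT.

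Set as a ratio, the activating transcripts Fcgr1, Fcgr3 and Fcgr4 together were 2.87 and 3.17 times Fcgr2b in MAflox EtOH and 9.81 and 9.50 times in MAflox 4-OHT. In MATIP cells the ratio was 4.35 and 4.65 with EtOH and 28.8 and 27.9 with 4-OHT. No group overlapped another, and MATIP 4-OHT stood farthest from the rest. The ratio is taken within a library, so scaling between libraries does not enter it. With 2 libraries against 2 an exact two-sided permutation test cannot give a p under 0.333, so the ratio was not tested. In MAflox cells both parts of the ratio rose, Fcgr3 more than Fcgr2b, whereas in MATIP cells the activating part rose and Fcgr2b fell. Per length, Fcer1g was 2.59 and 2.18 times the 3 activating receptors in MAflox EtOH and 1.18 and 1.15 times in MAflox 4-OHT. In MATIP cells it was 1.45 and 1.44 times with EtOH and 1.42 and 1.43 times with 4-OHT.

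**Figure D3:**
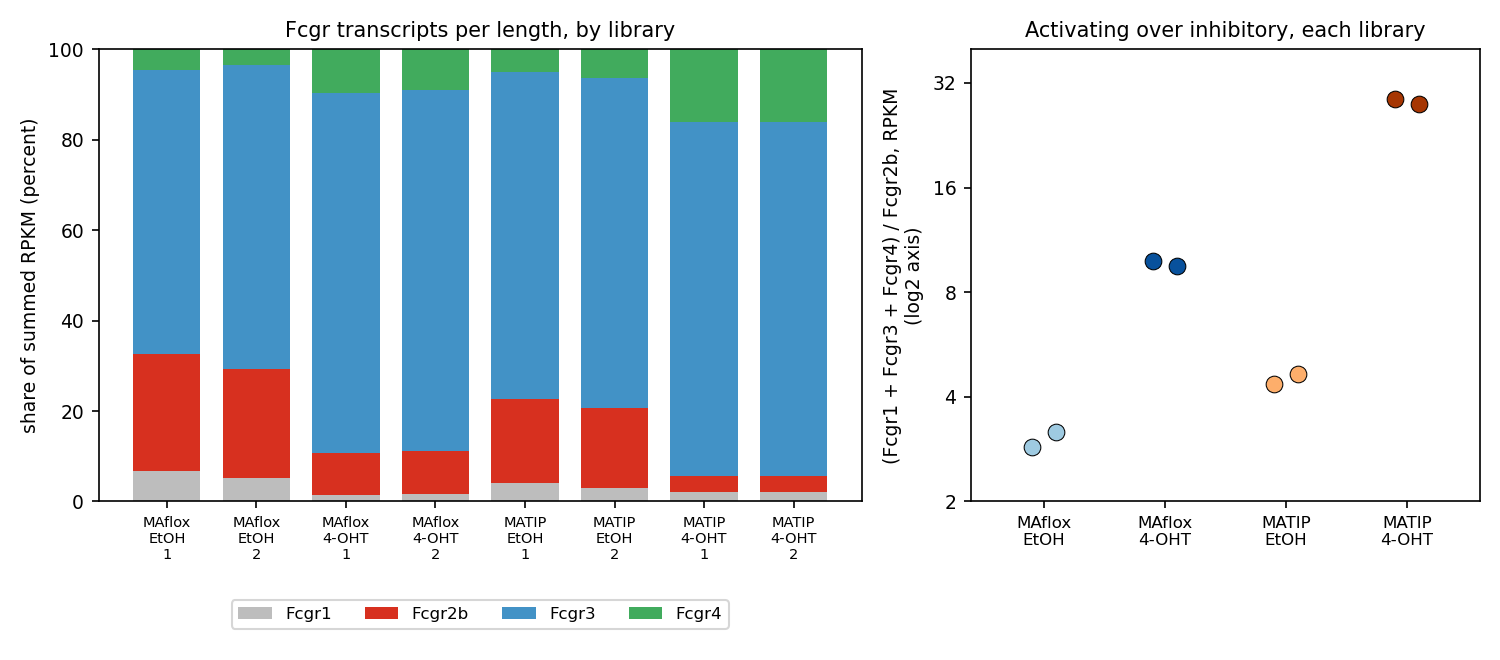
Left, the share of Fcgr1, Fcgr2b, Fcgr3 and Fcgr4 in their summed RPKM in each library, in percent; right, the ratio of Fcgr1, Fcgr3 and Fcgr4 to Fcgr2b in each library on a log2 axis. The ratio lies near 3 and 4.5 in the EtOH groups (means 3.02 and 4.50), at 9.65 in MAflox 4-OHT and at 28.3 in MATIP 4-OHT.

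Other Fc and Fc-like receptors were scarce. Of 14 on the list, 4 had 0 counts in all libraries (Fcamr, Fcmr, Fcrl6 and Pigr) and in each group 12 had a mean under 1 CPM, though not the same 12 in each. Fcer1a, the α chain of the mast cell receptor for immunoglobulin E, was at 0 counts in MATIP cells and reached 0.0883 CPM in MAflox 4-OHT. Ms4a2, the β chain of that receptor, stood at 3.81 ± 0.513 CPM in MATIP EtOH and fell to 0.805 ± 0.135 CPM (SD, n = 2; log2 −2.24 ± 0.25). In MAflox cells it was at 3.74 ± 0.165 and 5.28 ± 0.897 CPM (log2 0.50 ± 0.21; edgeR adjusted p = 0.0454). That call was lost under 8 alternatives, among them DESeq2 (adjusted p = 0.098), the replicate block (adjusted p = 0.056) and the fit without MAflox 4-OHT replicate 2 (adjusted p = 0.281). Trim21, a cytosolic receptor for antibody-coated particles, rose in MAflox (log2 0.69 ± 0.13) and MATIP cells (0.65 ± 0.13). Fcrls and Fcrlb stayed at or under 0.687 and 2.30 CPM as group means. Fcrlb rose in MATIP cells (4.89 ± 0.69), where it began at 0.0720 CPM. Fcrls rose in both lines (2.41 ± 0.74 and 3.45 ± 0.82), a call lost in MAflox cells without EtOH replicate 2 (adjusted p = 0.122) or 4-OHT replicate 2 (adjusted p = 0.0600).

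A list of partner genes rose widely. It holds genes whose products pair with Fc receptors or share the FcRγ chain, and also other adaptors and receptors, such as Tyrobp and Pirb. Of 14 listed, 12 were tested. Of these 11 rose in MAflox cells and all 12 in MATIP cells, beside 33.1% and 37.5% of all genes. The median log2 changes of the list were 1.40 and 2.55, beside 0.02 and 0.00 over all genes. The list was chosen with earlier results of these data known, and the filter favours genes that are high in some group. B2m, the light chain that FcRn needs, rose by less than Fcgrt itself, at 0.79 ± 0.06 and 1.13 ± 0.06. Tyrobp, which encodes DAP12, another ITAM adaptor, rose by 1.89 ± 0.06 in MAflox and 1.63 ± 0.06 in MATIP cells. The difference was −0.26 ± 0.08 for Tyrobp and 0.35 ± 0.08 for Fcer1g, each past the threshold and opposite in sign, although that of Fcer1g moves with the correction for length and GC content as given above. Lectin receptors on the list also rose, with values above that of Fcer1g in both lines for Clec4n and in MATIP cells for Clec4d and Clec4e. Clec4n, Dectin-2, went from 2.74 ± 0.342 to 60.5 ± 0.288 CPM in MAflox cells and from 11.4 ± 1.10 to 689 ± 38.5 CPM in MATIP cells (log2 4.45 ± 0.09 and 5.93 ± 0.08). Clec4d rose by 1.41 ± 0.08 and 4.74 ± 0.08, and Clec4e, which encodes Mincle, by 1.16 ± 0.06 and 2.43 ± 0.06. Pirb, an ITIM receptor of the paired immunoglobulin-like family, rose by 3.67 ± 0.10 in MAflox and 3.63 ± 0.09 in MATIP cells, and the difference of −0.04 ± 0.13 did not pass (edgeR adjusted p = 0.815). Fcgr2b and Pirb, both inhibitory, thus differed in direction in MATIP cells. Pirb has near copies among the Pira genes, so its counts are uncertain.

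The kinases and adaptors below activating receptors moved less. In MAflox cells 14 of 26 rose and 3 fell, beside 33.1% and 32.1% of all genes. In MATIP cells 18 rose and 4 fell, beside 37.5% and 38.6%. The median log2 changes of the 26 genes were 0.29 and 0.39. With library totals in place of TMM, which shifted the median of all genes by −0.16, the number that fell in MAflox cells was 11. Fgr, a Src family kinase, rose from 0.662 ± 0.165 to 42.9 ± 0.561 CPM in MAflox and from 1.09 ± 0.348 to 57.1 ± 4.61 CPM in MATIP cells (log2 5.99 ± 0.16 and 5.67 ± 0.14). Syk, which binds phosphorylated ITAMs, rose by 0.82 ± 0.06 and 1.28 ± 0.06. Prkcd, a protein kinase C, rose by 0.56 ± 0.06 and 1.66 ± 0.06. Btk and Card9 went the other way in MATIP cells, at −1.02 ± 0.06 and −1.92 ± 0.07; both were singled out after their values were seen.

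Genes of inhibitory signalling were split. Of 11, 5 rose and 5 fell in MAflox cells, beside 33.1% and 32.1% of all genes. In MATIP cells 6 rose and 3 fell, beside 37.5% and 38.6%. The medians of the 11 genes were 0.04 and 0.14. The falls in MAflox cells numbered 2 with the length and GC trend removed, and the rises in MATIP cells numbered 3 under that setting, with library totals and without MATIP EtOH replicate 1. Inpp5d, the phosphatase SHIP1 that Fcgr2b recruits, fell in MAflox cells (−0.68 ± 0.06) and was singled out after its values were seen. In MATIP cells its value was 0.14 ± 0.05 (edgeR adjusted p = 0.0274), a call lost with library totals (0.01), with the length and GC trend removed (0.05) and without either EtOH library of either line (0.13 in each case). Dok3 and Dok2, adaptors that restrain kinases, rose in MAflox cells by 1.21 ± 0.06 and 1.10 ± 0.07. In MATIP cells they rose by 0.35 ± 0.06 and 0.23 ± 0.08, the latter call being lost without MATIP EtOH replicate 1 (adjusted p = 0.0904), with library totals and with the length and GC trend removed. Pag1, which holds the kinase Csk at the membrane, rose by 0.43 ± 0.08 and 3.22 ± 0.08. Csk itself fell in MATIP cells (−0.56 ± 0.06) and was at 0.04 ± 0.05 in MAflox cells, or −0.13 with library totals, where it passed.

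**Figure D4:**
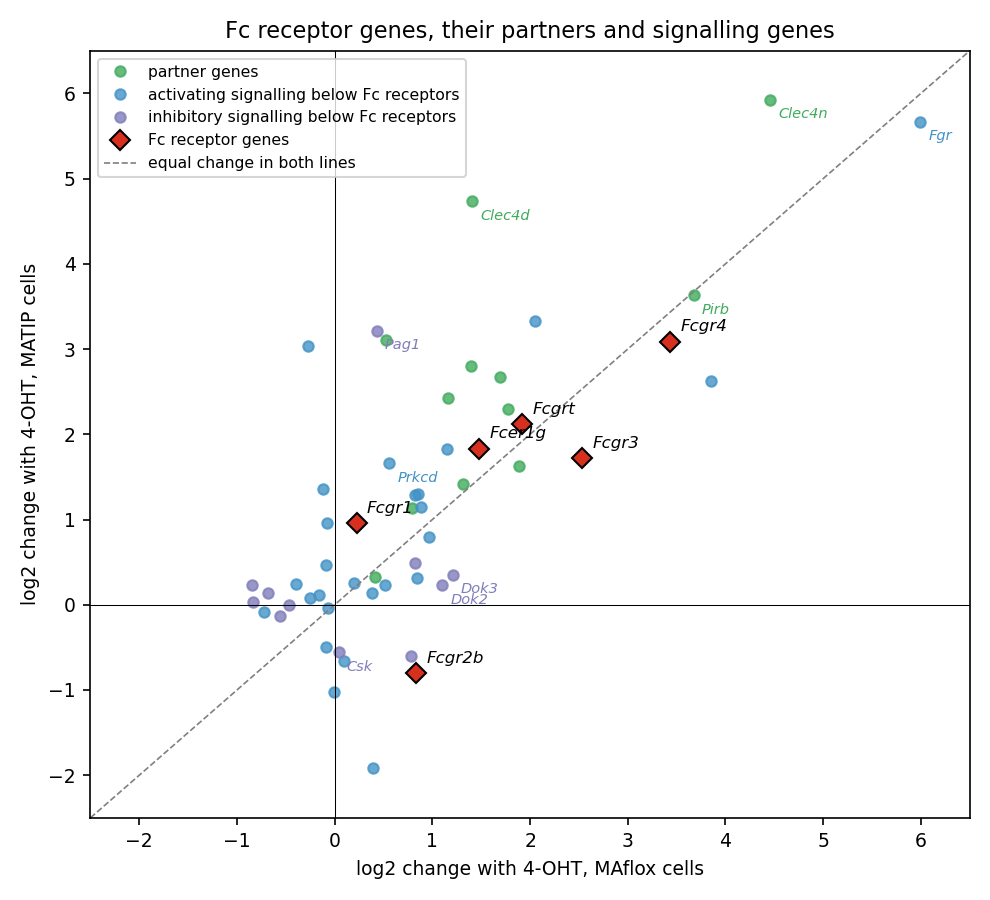
Log2 change with 4-OHT in MAflox (horizontal) against MATIP cells (vertical) for the 6 Fc receptor genes (red diamonds), their partner genes (green) and the activating (blue) and inhibitory (violet) signalling genes that were tested; the dashed line marks equal change, and some of the genes described in the text are named. Fcgr2b lies at 0.83 and −0.80, to the lower right of the other 5 receptor genes.

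The change in Fc receptors went with a change in markers of the cells that carry them. The summed level of 20 monocyte and macrophage markers went from 327 to 347 CPM in MAflox EtOH to 5228 to 5337 CPM with 4-OHT, and in MATIP cells from 468 to 506 CPM to 19658 to 20648 CPM. Lyz2 and Spp1 made up most of these sums, and without both the other markers summed to 154 to 169 and 535 to 577 CPM in MAflox cells and to 178 to 194 and 3202 to 3255 CPM in MATIP cells. The summed level of 14 mature neutrophil markers went from 408 to 414 CPM to 50222 to 53678 CPM in MAflox cells and from 815 to 964 CPM to 34100 to 37664 CPM in MATIP cells, most of it S100a8 and S100a9 with 4-OHT. Of the tested macrophage markers 13 of 16 rose and 1 fell in MAflox cells and 15 of 16 rose in MATIP cells. Of the neutrophil markers 14 of 14 rose in MAflox and 13 of 14 in MATIP cells. Beside these counts, 33.1% of all genes rose and 32.1% fell in MAflox cells, and 37.5% rose and 38.6% fell in MATIP cells. The macrophage genes C1qa, C1qb, C1qc and Vsig4 were at 0 counts in both MAflox groups, and C1qa was at 0 in MATIP cells too. Lyz2, the lysozyme of myeloid cells, rose by 4.97 ± 0.07 and 5.40 ± 0.07, and S100a8, a calcium-binding protein of neutrophils, by 7.75 ± 0.09 and 5.22 ± 0.08. Adgre1, which encodes F4/80, was at 81.2 CPM in MAflox 4-OHT and 542 CPM in MATIP 4-OHT, and Csf1r at 13.6 and 84.2 CPM. The part of these markers in the Fc receptor results was not tested. In bulk RNA a larger share of cells of 1 type and more RNA per cell cannot be told apart.

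Markers of further cell types that use Fc receptors summed to less than the macrophage or neutrophil markers in every group, though not all were low. The summed level of 14 mast cell and basophil markers was 122 to 156 CPM in the MAflox groups and MATIP EtOH and 229 to 236 CPM in MATIP 4-OHT. Most of it was Kit (176 ± 3.17 CPM in MATIP 4-OHT), and Tpsab1 and Mrgprb2 were at 0 in all groups. Without Kit and Hdc the sums were 45.8 to 46.1 CPM in MAflox EtOH and 48.5 to 53.0 CPM in MAflox 4-OHT. In MATIP cells they were lower, at 14.0 to 14.5 CPM with EtOH and 33.5 to 34.4 CPM with 4-OHT. Of those tested, 8 of 10 rose in MAflox cells (5 with DESeq2, 4 with a mean of at least 1 CPM) and 6 in MATIP cells (3 with the groups compared alone), and 1 fell in each line. Eosinophil markers summed to 53.8 to 81.6 CPM in MAflox 4-OHT and 36.1 to 38.3 CPM in MATIP 4-OHT, against at most 9.38 CPM with EtOH. Different genes made up these sums. In MAflox 4-OHT they were mainly Prg2 (32.1 ± 13.7 CPM), Siglecf (17.3 ± 1.45) and Epx (11.2 ± 4.51). In MATIP 4-OHT they were mainly Ear2 (17.1 ± 0.611 CPM), Ear1 (10.0 ± 0.347) and Siglecf (6.14 ± 0.667), while Prg2 and Epx were at 0.0237 and 0.0474 CPM. Of dendritic markers Cd74 (105 ± 5.76 CPM) and Itgax (88.6 ± 2.81 CPM) made up nearly all of the 194 to 200 CPM in MATIP 4-OHT, while the other groups summed to at most 26.5 CPM. Of the 6 dendritic markers tested, 2 rose and 1 fell in MAflox cells, beside 33.1% and 32.1% of all genes. That number of rises is near the share of all genes. In MATIP cells 4 rose (2 with a mean of at least 1 CPM) and 1 fell, beside 37.5% and 38.6%. The marker that fell was Flt3, from 15.8 to 1.38 CPM in MAflox and from 1.92 to 0.521 CPM in MATIP cells (log2 −3.50 ± 0.26 and −1.89 ± 0.34). B, T and NK cell markers summed to at most 14.3 CPM in any library, with Pax5, Cd3e, Cd8a and Ncr1 at 0 in all groups. Fcgr2b is also the Fcγ receptor of B cells. Cd79b, a chain of the B cell receptor complex, rose from 6.78 ± 0.666 to 10.7 ± 1.24 CPM in MAflox cells and fell from 9.72 ± 0.742 to 6.59 ± 0.228 CPM in MATIP cells (log2 0.66 ± 0.14 and −0.56 ± 0.14), the directions of Fcgr2b. Cd79a, its partner chain, stayed under 1 CPM and rose in MATIP cells (2.50 ± 0.70), a call lost without MATIP EtOH replicate 2 (adjusted p = 0.0552). The part of B cell, mast cell, eosinophil and dendritic markers in the Fc receptor results was not tested.

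Genes around the chromosome 1 cluster moved in both directions. In the window from 100 kb before Fcgr2b to 100 kb after Fcer1g, 15 neighbours were tested. In MAflox cells 4 of them rose and 3 fell, beside 33.1% and 32.1% of all genes. In MATIP cells 5 rose and 5 fell, beside 37.5% and 38.6%. These counts are thus no more than those shares. Among the 10 neighbours with a mean of at least 1 CPM, log2 changes ran from −0.72 (Dusp12) to 0.81 (Ppox) in MAflox cells and from −1.21 (Dusp12) to 0.37 (Ufc1) in MATIP cells. Fcgr3, Fcgr4 and Fcer1g lay above each of these 10 in both lines. Fcgr2b in MAflox cells (0.83 ± 0.06) lay within its SE of Ppox. The other 5 neighbours had a mean under 1 CPM, and 3 of them rose in MATIP cells. These were the Fc receptor-like genes Fcrlb (4.89 ± 0.69, more than any of the 6 Fc receptor genes) and Fcrla (from 0 counts in EtOH to 0.792 CPM), which lie next to Fcgr2b, and Pcp4l1 (1.79).

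**Figure D5:**
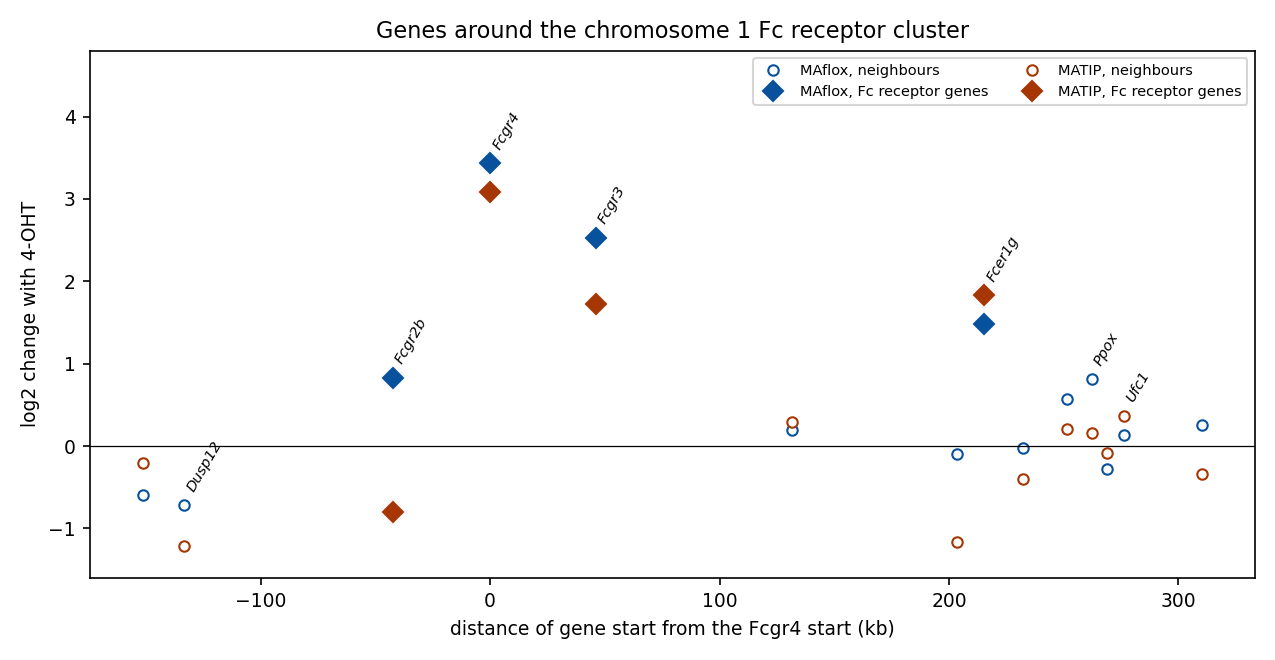
Log2 change with 4-OHT in MAflox (blue) and MATIP cells (brown) against the distance of a gene's start from the Fcgr4 start in kb, for genes around the chromosome 1 cluster with a mean of at least 1 CPM; diamonds are Fc receptor genes and open circles neighbours, of which those with the lowest and highest values are named. The neighbours lie between −1.21 and 0.81, below Fcgr3, Fcgr4 and Fcer1g in both lines.

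The genes most like each member were found among 9507 genes of at least 5 CPM by the root mean square difference of centred log2 CPM over the 8 libraries. For Fcgr2b these were Lta4h (0.07), the hydrolase that makes leukotriene B4, Pnp (0.07) and Pak1 (0.08), against a median of 0.58. Lta4h had log2 changes of 0.68 in MAflox and −0.76 in MATIP cells. Fcgr3 was most like Cotl1, Ccrl2 and Gsn (0.12 to 0.13, median 1.24), and Fcgr4 most like Hlx, Mak and Zbp1 (0.17 to 0.23, median 1.82). Fcer1g was most like Cd53, Cstb and Icosl (0.07 to 0.08, median 0.998), and Fcgrt most like Msra, Ggh and Plscr1 (0.08 to 0.10, median 1.15). Fcgr1 had Coq10b, Dpp7 and Azin1 (0.13 to 0.14, median 0.63). Among the 6 themselves Fcer1g and Fcgrt were closest (0.26) and Fcgr2b and Fcgr4 farthest apart (1.84). Leaving out a library kept 2 or 3 of the 3 names for Fcgrt but 0 to 2 for Fcgr1 and 0 to 3 for Fcgr2b, so single names are not firm.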

How the data were processed

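RNA was sequenced in 8 libraries, with groups read from titles. Raw counts per gene symbol are deposited. Trimmomatic 0.38.0, HISAT2 2.1.0 and the build mm10 are named by the authors in the submitters' processing notes, as are featureCounts 1.6.4 and DESeq2. The authors' second table holds, per the file headers, log2 fold changes and adjusted p-values of 4-OHT against EtOH in each line. The sources used here give no annotation or strand setting of the counting.

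Genes passing filterByExpr (minimum count 10, minimum total 15) numbered 13722. They were fitted with edgeR 4.0.16 quasi-likelihood (R 4.3.3), TMM, 1 coefficient per group, and tested for both 4-OHT responses, their difference and the lines in each treatment. The SE is the log2 change over the square root of F. The 6 genes and 10 lists were chosen with earlier results of these data known. Named were the 6 genes, per list the 2 called genes with the smallest p in each response, and 3 like genes per member; other names were chosen after values were seen, and some genes are not reported here. No 2 replicates matched within sampling noise (chi-square per degree of freedom 7.33 to 13.6). Alternatives were other scalings, filters, DESeq2 1.42.0, left-out libraries, replicate blocks and a length and GC correction.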

Additional observations from a re-analysis of the deposited data

Results flagged for a closer look

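The 4-OHT response differed between the lines, by the test of the difference itself in edgeR, for 4 of the 6 genes, beside 61.9% of all genes tested. The log2 difference, MATIP minus MAflox, was −1.63 for Fcgr2b, −0.81 for Fcgr3, 0.73 for Fcgr1 and 0.35 for Fcer1g. Fcgr2b is the member whose 2 responses had opposite signs, each called on its own. The labels do not say whether MAflox cells carry Cre-ERT2, so loss of Tip60 and other differences between the lines cannot be told apart here. Fcgr2b, Fcgr3, Fcgr4 and Fcer1g already differed between the lines in EtOH. For Fcer1g that difference was small (0.18 ± 0.06), and its call was lost with RLE factors, upper-quartile scaling and library totals, among others.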

How the results depend on the processing

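Of 30 results (6 genes in 5 comparisons), 25 kept their call in all alternatives run for them. Uncalled values changed sign for Fcgr1 between the lines in EtOH (0.13 without MAflox EtOH replicate 1, 0.20 without MATIP EtOH replicate 2), for Fcgrt there (0.06 without MAflox EtOH replicate 2, 0.07 without MATIP EtOH replicate 2, 0.00 with the length and GC trend removed) and for the response difference of Fcgr4 (0.06 with the trend removed). Calls changed for 5 results. The lines in EtOH differed in Fcer1g by 0.16 with RLE factors, 0.10 with upper-quartile scaling, 0.14 with library totals and 0.15 with the groups compared alone, all no longer called, and by 0.12 to 0.25 with 1 library left out. With 4-OHT Fcgr3 differed by 0.17 with RLE factors, 0.18 with upper-quartile scaling, 0.18 with a mean of at least 1 CPM, 0.17 with DESeq2 and 0.53 with the length and GC trend removed, all called, and by 0.12 under the replicate block (edgeR adjusted p = 0.0492), and Fcgrt by 0.21, 0.22, 0.22 and 0.33 under RLE, upper-quartile, 1 CPM and the trend removed. The response difference of Fcgrt passed at 0.33 with upper-quartile scaling and with the trend removed, and that of Fcgr4 ranged from −0.52 to −0.15 with 1 library left out. Counts of genes called stayed within 1.5 times. Same-numbered libraries did not deviate together (correlations −0.04 in MAflox, −0.07 in MATIP), so the numbers were not used as pairs, and the block changed no other call of the 6 genes. With the length of the longest transcript, an alternative chosen after seeing the data, the activating ratio was 2.31 and 7.41 in MAflox and 3.46 and 21.4 in MATIP cells, EtOH first. Of genes named from lists, Kit in MAflox cells went from −0.11 to 0.15 with the trend removed, and Csk there from 0.04 to −0.13 with library totals. Upper-quartile scaling shifted the median of all genes by 0.15 in MATIP cells. With 1 library left out of a group of 2, the lone library is assumed to vary like the others.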
